A study of Mus musculus with 30 samples.

Results

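The regions described here are stretches of the mouse genome that were enriched for 5-hydroxymethylcytosine (5hmC) in 3 cell groups and were never called with 5-formylcytosine (5fC) in any of them. They were drawn from the 140943 regions that the authors listed for 5hmC in Tdg fl/fl embryonic stem (ES) cells on chromosomes 1 to 19 and X. A region was taken where it was under 4000 bp wide, shared at least 1 bp with a 5hmC region of Tdg -/- ES cells and with one of embryoid bodies (EB), and touched none of the 3 lists of 5fC regions. A region in all 3 5hmC lists is called stable below. Of 139794 regions under the width limit, 121904 were also in the Tdg -/- list and 63372 of these in the EB list as well; over all fl/fl ES 5hmC regions, whatever their width, 87.3% were in the Tdg -/- list and 47.6% in the EB list. Among these, 10616 were in no 5fC list, which is 16.8% of the stable regions and 7.53% of all fl/fl ES 5hmC regions (Wilson 95% interval 7.40 to 7.67). The other 52756 stable regions overlapped 5fC in at least 1 list. The members were chosen by the measured positions and widths of 5hmC and 5fC regions, so those values describe the choice.

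5hmC is made from 5-methylcytosine by the TET dioxygenases, which can oxidise it further to 5fC and 5-carboxylcytosine. Thymine DNA glycosylase, the product of Tdg, excises these last products, and base excision repair then restores an unmodified cytosine. 5hmC can also persist as a mark of its own, and in ES cells it is known from gene bodies and from enhancers. p300, encoded by Ep300, is a histone acetyltransferase recruited to enhancers and is widely used to map them.

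All groups come from one strain background, C57BL/6-ICR. The fl/fl ES cells carry floxed but undeleted Tdg, the Tdg -/- ES cells have lost it, and the EB are fl/fl cells kept for 5 days in suspension without LIF, CHIR99021 and PD0325901. Each list of 5hmC or 5fC regions stands for 2 libraries of chemically labelled and enriched DNA, amplified over 18 PCR cycles, and each p300 list for 3 libraries, of ES cells alone. No source used here tells how many cell lines or animals lie behind these libraries. With 1 pooled list per group, replicate spread is unknown and samples could not be tested against each other. Shares carry Wilson intervals and differences Newcombe intervals, both at 95%. They cover counting error only and treat regions as independent, and a difference outside its interval has not been shown to exceed the spread between cultures.

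In the RNA tables, with 1 pooled FPKM value per genotype, Tdg stood at 22.1 in fl/fl and 9.48 in Tdg -/- cells. Of 22 genes of cytosine methylation, oxidation and repair, 21 were measured. None was at least 2-fold higher in Tdg -/- cells on the log2(FPKM + 1) scale and 1, Tdg itself, was at least 2-fold lower, where 0.183% and 0.174% of all 12053 measured genes passed these limits. The oxidases Tet1 (66.6 and 76.9 FPKM in fl/fl and Tdg -/- cells) and Tet2 (46.9 and 43.8) and the coactivator Ep300 (25.9 and 27.4) were well above Tet3 (1.18 and 1.59) in both genotypes. The 9 ES cell markers measured lay between 31.6 and 4571 FPKM in fl/fl cells, led by Dppa5a, Pou5f1 and Nanog. Markers of fibroblasts, endoderm and mesoderm stayed at or under 3.11 FPKM in both genotypes, while the keratins Krt8 (16.6 and 15.0 FPKM) and Krt18 (8.80 and 6.92) and the progenitor filament gene Nes (6.09 and 6.07) were detected. The other markers of trophectoderm and neuroectoderm stayed at or under 1.25 FPKM, with the trophectoderm factors Cdx2 at 0.0656 and 0.0668 and Elf5 at 0.0570 and 0.123. No expression values of EB were used here.

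The 5hmC of these regions was weak in fl/fl ES cells. The authors' score, 10 times the negative log10 of a region's p-value, ran from 50.01 to 726.15 with a median of 84.3, against 163 for the stable regions with 5fC and 109 for all fl/fl ES 5hmC regions. Such a score grows with depth, so it is compared only within a list. The median region stood at the 35.6th percentile of the fl/fl ES list, and its counterparts at the 48.5th percentile of the Tdg -/- list and the 37.7th of the EB list. Stable regions with 5fC stood at the 68.4th, 77.3rd and 65.4th. Across all fl/fl ES 5hmC regions, 32.6% overlapped fl/fl ES 5fC, 61.7% Tdg -/- 5fC and 12.4% EB 5fC, and 35.0% overlapped none. Nothing is read from these shares beyond the choice of the members.

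When the fl/fl ES list was cut into 10 classes of equal size by score, the part of stable regions that lacked 5fC declined with every class. It was 41.9% (40.3 to 43.7) in the weakest class, 25.2% in the fifth and 0.378% (0.269 to 0.531) in the strongest, where 33 of 8725 stable regions had no 5fC. Stable 5hmC without 5fC was thus common among weak regions and rare among strong ones. Whether a deeper 5fC library would have called 5fC at the weak ones was not tested. The fl/fl ES 5fC list starts at a score of 60.92 and the other 7 lists at 50, so fl/fl ES 5fC regions below that score are not among those used.

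**Figure D1:**
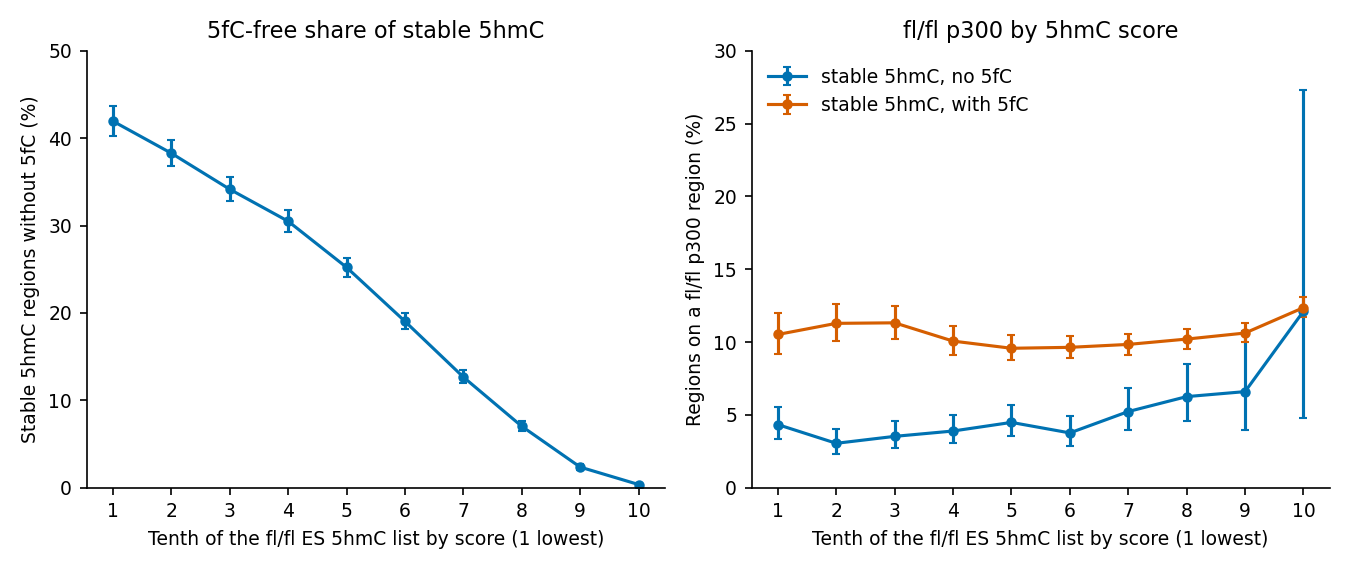
Left, percentage of stable 5hmC regions that overlap no 5fC list, by class of fl/fl ES 5hmC score (10 equal classes, 1 the weakest). Right, percentage of stable regions on a fl/fl p300 region, without and with 5fC. Points are shares and bars Wilson 95% intervals. The left share runs from 41.9% to 0.378%; on the right the regions without 5fC lie near 4% in the weak classes, below those with 5fC, and the strongest class holds only 33 of them.

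Regions without 5fC were also narrow. Their width had a median of 863 bp (order-statistic 95% interval 858 to 868), the middle 50% lay between 723 and 1050 bp, and the range was 331 to 3714 bp. Stable regions with 5fC had a median of 1116 bp, with the middle 50% between 877 and 1534 bp. Only 1.25% of the regions without 5fC were wider than 2000 bp, against 11.5% of those with 5fC. ES 5hmC regions without 5fC that were absent from EB had nearly the same widths, with a median of 864 bp. The width limit removed nothing: of 458 regions of at least 4000 bp in all 3 5hmC lists, 0 lacked 5fC. The chance to meet a 5fC region by 1 bp depends on width, and the part of the rule in the narrow widths was not tested. Within a class of score the medians lay closer together, at 742 against 794 bp in the weakest class and 949 against 994 bp in the sixth, and they crossed in the strongest, at 1978 against 1833 bp.

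**Figure D2:**
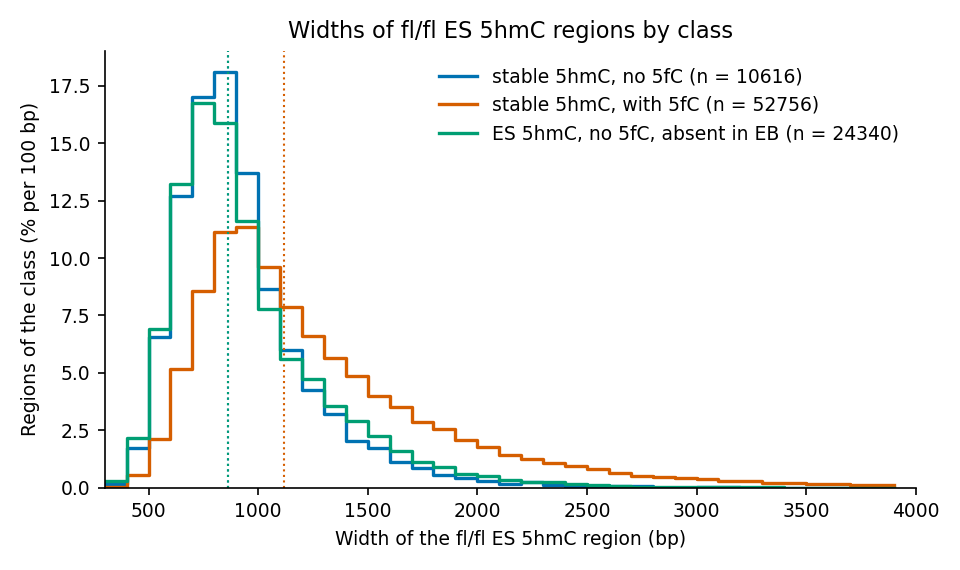
Widths of fl/fl ES 5hmC regions in 3 classes, as the percentage of each class per 100 bp of width; dotted lines mark the medians. Stable regions without 5fC (10616) and 5hmC regions without 5fC that EB lack (24340) share a narrow peak with medians of 863 and 864 bp, which lie on top of each other, and stable regions with 5fC (52756) reach further to the right, with a median of 1116 bp.

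The 5hmC at these regions lay at nearly the same place in the 3 lists. The matching Tdg -/- region covered a median of 98.4% of the fl/fl region and the EB region 97.3%, and at least 50% was covered at 98.9% and 94.6% of members. The stable regions that met 5fC were covered slightly more fully, by a median of 99.5% and 98.7%, with at least 50% covered at 99.7% and 96.8%. The centres of matched regions were a median of 62 bp apart between the genotypes and 75.5 bp apart between ES cells and EB, against 71.8 and 91 bp for stable regions with 5fC. Median widths were 976 bp in Tdg -/- cells and 986 bp in EB, and the counterpart was wider than the fl/fl region at 71.2% and 68.2% of members. Counterparts of stable regions with 5fC were wider at 73.9% and 68.9%. The stretch common to all 3 lists had a median of 754 bp, and 107 regions had none, since their 2 counterparts met different parts of the fl/fl region. The depth of each list is unknown, so widths that differ between lists cannot be read as growth of a region.

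The members with the strongest fl/fl 5hmC were strong in both ES lists but not in EB. The highest fl/fl score, 726.15, belonged to a region of 2479 bp at 130333575 to 130336054 on chromosome 4 (mm9), with a score of 628.46 in Tdg -/- cells and 89.27 in EB. Next came 30245874 to 30247834 on chromosome 7, scored 609.66 in the fl/fl list, 477.36 in the Tdg -/- list and 119.03 in the EB list. In the same order of lists, a region at 32233361 to 32235043 on chromosome 3 had scores of 597.28, 708.02 and 73.04, and one at 44585924 to 44588961 on chromosome 18 had 524.68, 507.61 and 58.13. Median scores were 109, 141 and 104 in the fl/fl, Tdg -/- and EB lists, so 3 of the 4 were below the EB median. These 4 were picked for their fl/fl score, so lower standing in another list is favoured by the choice. The nearest Tdg -/- 5fC region was 329, 1058, 29 and 285 bp away, and none of the 4 touched p300 in either genotype.

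The 4 widest members were all narrower in EB. They lay at 91547660 to 91551374 on chromosome 1 (3714 bp), 20723840 to 20727215 on chromosome 9 (3375 bp), 19974399 to 19977614 on chromosome 10 (3215 bp) and 84169688 to 84172872 on chromosome 17 (3184 bp). Their Tdg -/- counterparts measured 3331, 2227, 2805 and 3190 bp and their EB counterparts 986, 1030, 790 and 1366 bp. Because the 4 were picked for their fl/fl width, narrower counterparts are favoured by the choice. Over all members the EB counterpart was wider than the fl/fl region at 68.2%. At the other end, the narrowest members spanned 331 bp, at 9538749 to 9539080 on chromosome 3, and 343 bp, at 79221338 to 79221681 on chromosome 11. Their EB counterparts measured 695 and 552 bp, where the choice favours wider counterparts. The 4 members with the lowest fl/fl score, all at 50.01, stood on chromosomes 2, 7, 9 and 13 and had Tdg -/- scores of 99.95, 397.3, 329.06 and 125.2. Because the 4 were picked for the lowest fl/fl score, a higher standing in another list is favoured by the choice. Beside the Tdg -/- median of 141, those on chromosomes 7 and 9 stood above and those on chromosomes 2 and 13 below.

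These regions were found on all 20 chromosomes. They numbered between 3.60 and 6.50 per Mb on the 18 autosomes other than chromosome 11, with a median of 4.56, where lengths are the spans from the first to the last region of any list. Chromosome 11 held 2.54 per Mb and chromosome X 0.273, with 44 regions. As a share of all fl/fl ES 5hmC regions they made up 6.50% to 8.77% on those 18 autosomes, 4.58% (4.10 to 5.11) on chromosome 11 and 10.2% (7.69 to 13.4) on chromosome X. Chromosome 11 also had the most Tdg -/- 5fC, at 84.1% of its fl/fl ES 5hmC regions against 55.3% to 64.3% on the other 18 autosomes, and EB 5fC lay at 21.1% against 9.14% to 13.7%. The part of its 5hmC regions with fl/fl ES 5fC, 31.8%, was within the range of the others, 28.1% to 36.3%. Its 5hmC stood apart too, with 98.5% of its fl/fl ES regions in the Tdg -/- 5hmC list, against 83.7% to 89.2%, and 56.6% in the EB list, against 44.8% to 48.5%. Tdg -/- 5fC regions numbered 87.5 per Mb on chromosome 11 and 32.6 to 63.4 on the others. The low share of members and the high share with 5fC come from the same lists, so they are 1 observation.

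**Figure D3:**
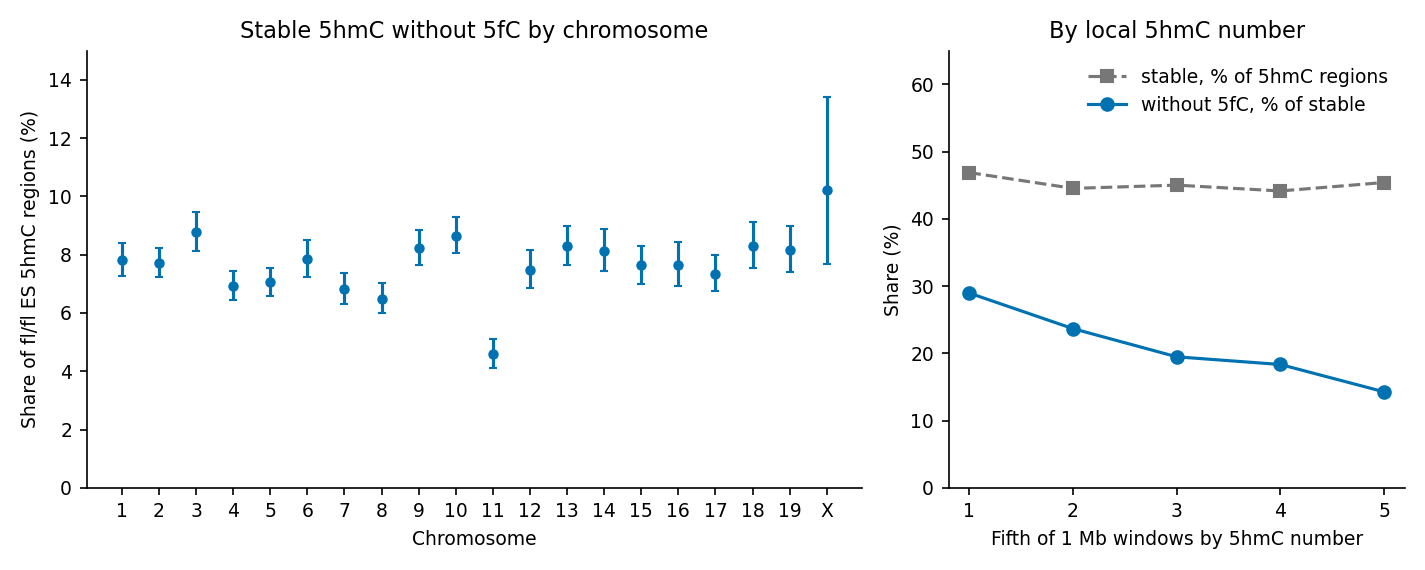
Left, stable 5hmC regions without 5fC as a percentage of all fl/fl ES 5hmC regions on each chromosome, with Wilson 95% intervals. Chromosome 11 is lowest at 4.58% and chromosome X, with 44 regions, highest at 10.2%. Right, windows of 1 Mb in 5 equal classes by their number of 5hmC regions: the stable share stays between 44.1% and 46.9%, and the share of stable regions without 5fC goes from 29.0% to 14.3%.

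In windows of 1 Mb the number of members followed the number of 5hmC regions. Of 2241 windows that held fl/fl ES 5hmC, 423 had no member, 1456 had 1 to 9 and 362 had 10 or more. The median was 3 members beside 44 5hmC regions. Across windows, which share libraries and composition, Spearman's rho between the numbers of members and of all 5hmC regions was 0.879. Members are among the 5hmC regions counted, so part of this value is built in. With the number of stable regions with 5fC, which include no member, rho was 0.837. The most members, 24, stood in the windows of chromosome 15 from 96 to 97 Mb and from 99 to 100 Mb, followed by 22 from 53 to 54 Mb on chromosome 19. These windows also held 188, 243 and 228 5hmC regions.

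Members were less frequent, relative to other stable 5hmC, where 5hmC was dense. In the sparsest of 5 equal classes of windows, 29.0% of stable regions had no 5fC, and in the densest 14.3%, with 23.7%, 19.5% and 18.3% between. Stable regions themselves made up 44.1% to 46.9% of 5hmC regions in all 5 classes. In absolute numbers the members still went from 0.359 to 10.5 per window. Their median width was 734 bp in the sparsest and 899 bp in the densest windows, and that of stable regions with 5fC 881 and 1180 bp. The classes of windows were not compared at equal 5hmC score or width. The sparsest class includes 56 windows of chromosome X and the second 21.

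Members did not stand alone. Within 10 kb of their centres lay on average 2.70 other fl/fl ES 5hmC regions, against 3.10 for stable regions with 5fC, and 15.8% had none. Another member was within 10 kb of 21.0% of them, and the median distance between members was 36153 bp. 5fC was often close: the nearest Tdg -/- 5fC region was a median of 2767 bp away, the nearest fl/fl ES one 7432 bp and the nearest EB one 18760 bp. For the ES 5hmC regions without 5fC that EB lack, these medians were 2585, 6263 and 18966.5 bp. Tdg -/- 5fC lay within 1 kb of 27.3% of members and 27.1% of those regions. Such closeness was thus not particular to the members. In all, 3132 members had 5fC of some list within 1 kb, and 369 within 100 bp. On the other side of the limit, 211 overlaps between a stable region and 5fC measured 1 to 99 bp, summed over the 3 5fC lists, so that a region can count more than once. Of the 10616 members, those within 100 bp of 5fC were thus a small part, and the median gap to the nearest 5fC of any list was 2455 bp.

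p300 took no part in the choice of the regions. Of the 10616 members, 444 overlapped a fl/fl p300 region, 4.18% (3.82 to 4.58), where 8.12% of all fl/fl ES 5hmC regions did. In Tdg -/- cells 648 did, 6.10% (5.66 to 6.58), against 11.8% of all. Stable regions with 5fC lay on p300 at 10.6% (10.3 to 10.9) and 14.5% (14.2 to 14.8). The difference between the regions without and with 5fC was -6.41 percentage points (-6.86 to -5.93) for fl/fl p300 and -8.38 (-8.92 to -7.82) for Tdg -/- p300. The fl/fl difference was -2.30 with the higher-scoring 50% of each list, -4.21 where marks were counted at region centres (1.48% of members on p300) and -3.85 against stable regions with 5fC in the Tdg -/- list alone. The share was lower for the regions without 5fC on 20 of 20 chromosomes in both genotypes, although on chromosome X 0 of 44 touched p300, which allows up to 6.82%. A p300 region often carries 5fC itself (42.7% of the 32160 fl/fl p300 regions overlap some 5fC list), so a class chosen for its lack of 5fC leaves much p300 out by construction.

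With the 3 5fC lists pooled, p300 was more frequent at stable regions that met more of them. fl/fl p300 lay at 7.91% (7.56 to 8.28) of stable regions with 5fC in 1 list, 11.2% (10.8 to 11.6) with 2 and 16.3% (15.5 to 17.1) with 3, beside the 4.18% with none. Regions with 5fC in the Tdg -/- list alone, where the glycosylase is lost, stood at 8.04% (7.67 to 8.42) and were 20243 of the 21655 with 5fC in 1 list. The 1009 regions with 5fC in the fl/fl ES list alone were an exception, at 3.57% (2.59 to 4.90). The 403 with 5fC in the EB list alone stood at 12.4% (9.54 to 16.0), so the share also differed by which list was met. The shares by number of lists were not compared at equal width or score.

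Since wide regions meet p300 more often, the comparison of stable regions without and with 5fC was repeated at equal width. Among regions over 500 and up to 1000 bp wide, 3.67% (3.26 to 4.12) of 7229 regions without 5fC and 7.87% (7.50 to 8.25) of 20263 with 5fC lay on fl/fl p300. Over 1000 and up to 1500 bp the shares were 5.34% (4.53 to 6.28) and 10.5% (10.0 to 10.9), and above 2000 bp 8.27% (4.68 to 14.2) and 17.5% (16.6 to 18.5). In the narrowest class, up to 500 bp, 2 of 205 and 11 of 329 lay on fl/fl p300, and the intervals overlapped. With the stable regions with 5fC weighted to the widths of those without, the fl/fl difference was -4.58 points and the Tdg -/- difference -6.04. Weighted to widths and 5hmC scores together, they were -5.71 and -6.54. Over the 10 classes of 5hmC score the share of regions with 5fC on fl/fl p300 lay between 9.58% (8.75 to 10.5) in the fifth and 12.4% (11.7 to 13.1) in the strongest, and on Tdg -/- p300 it was 12.4% in the weakest and 19% (18.2 to 19.8) in the strongest. Among regions without 5fC it was between 3.06% and 4.49% in the 6 weaker classes and 5.24%, 6.26% and 6.60% in the next 3. In the strongest class 4 of 33 lay on p300, 12.1% (4.82 to 27.3), beside 12.4% of those with 5fC. On Tdg -/- p300 the members stood at 5.37% (4.29 to 6.70) in the weakest and 18.2% (8.61 to 34.4) in the strongest class.

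**Figure D4:**
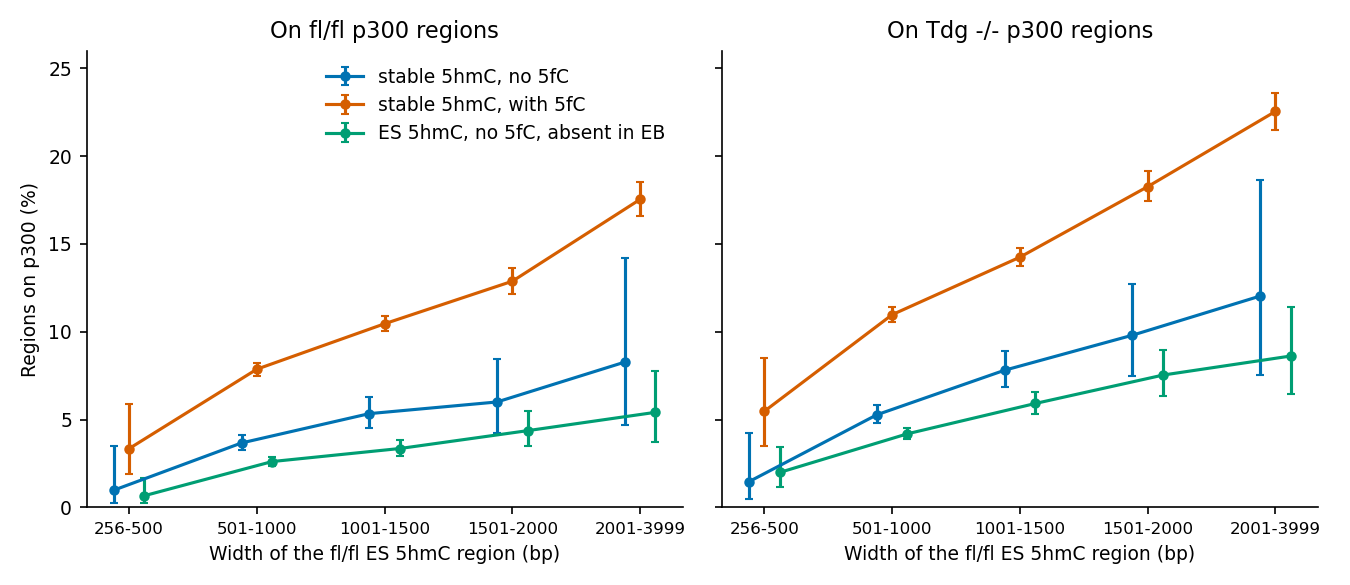
Percentage of 5hmC regions on a p300 region by width class, for fl/fl p300 (left) and Tdg -/- p300 (right), in stable regions without 5fC, stable regions with 5fC and ES 5hmC regions without 5fC that EB lack. Points are shares and bars Wilson 95% intervals. In each width class the points without 5fC lie below those with 5fC, for example 3.67% against 7.87% over 500 and up to 1000 bp on fl/fl p300; intervals overlap in the narrowest class.

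By the local number of 5hmC regions, members lay on fl/fl p300 at 2.48% (0.970 to 6.21) in the sparsest class of windows, then at 3.61% (2.50 to 5.21), 4.95% (4.04 to 6.06), 4.06% (3.43 to 4.80) and, in the densest, 4.12% (3.59 to 4.73), and these intervals overlapped. On Tdg -/- p300 the shares were 1.24% (0.341 to 4.42), 5.35%, 6.81% (5.73 to 8.08), 5.89% and 6.27%, and the sparsest class, with 2 of 161 members, lay below the third beyond counting error. Stable regions with 5fC stood on fl/fl p300 at 4.05%, 7.68%, 9.12%, 10.5% and 11.3% in the same windows. The nearest fl/fl p300 region was a median of 16219 bp from a member and 11661 bp from a stable region with 5fC, and 10.2% and 16.7% had one within 1 kb.

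Between the genotypes, 332 members (3.13%, 2.81 to 3.48) lay on p300 in both, 112 (1.06%, 0.878 to 1.27) in fl/fl cells alone and 316 (2.98%, 2.67 to 3.32) in Tdg -/- cells alone. Over all fl/fl ES 5hmC regions these shares were 5.87%, 2.26% and 5.97%, and p300 in either genotype lay at 14.1%, against 7.16% of members. The number of members on p300 was 1.46 times as high in Tdg -/- as in fl/fl cells. The same ratio was 1.46 over all fl/fl ES 5hmC regions, 1.37 at stable regions with 5fC and 1.35 for the lengths of the whole p300 lists. It was 1.67 at regions without 5fC that EB lack and 2.06 at stable regions with 5fC in the fl/fl ES list alone. The members' ratio thus lay within the range of the other classes. On chromosome 11 the order was the other way, with 12 members on fl/fl and 9 on Tdg -/- p300, as for stable regions with 5fC there (13.0% and 8.27%). Without this chromosome the members' shares were 4.19% and 6.20%.

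The p300 regions that met members ranked near the middle of their lists. There were 458 in fl/fl cells, 1.42% of that list, with a median width of 853.5 bp against 833 bp and a median score at the 46.3rd percentile of the list. Of these, 77.5% (73.5 to 81.1) were also listed in Tdg -/- cells, against 78.4% of all fl/fl p300 regions. On stable 5hmC with 5fC it was 66.8% (65.5 to 68.0), and on ES 5hmC without 5fC that EB lack 81.0% (77.9 to 83.7). In the Tdg -/- list 660 met members, at the 51.0th percentile. Of them, 58.6% (54.8 to 62.3) were also in the fl/fl list, where 57.8% of all Tdg -/- p300 regions were. On stable 5hmC with 5fC it was 49.2% (48.1 to 50.4), and on ES 5hmC without 5fC that EB lack 52.9% (50.1 to 55.8). 5fC of some list lay at 78 of the 458 (17.0%, 13.9 to 20.7) and at 114 of the 660 (17.3%, 14.6 to 20.3), outside the stretch they share with the member, against 42.7% and 42.5% of the whole lists. The rule lowers these shares.

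p300 covered less of these regions, and less often their centres, than it did at stable regions with 5fC. In fl/fl cells the shared stretch had a median of 309 bp, or 31.9% of the member, and the member's centre lay inside p300 in 138 of 459 overlapping pairs (30.1%). At stable regions with 5fC, which are wider, the shared stretch was 602 bp, or 42.4% of the region, and the centre was inside in 49.4%. The regions without 5fC that EB lack were like the members, with 306 bp shared and the centre inside in 29.0%. In Tdg -/- cells the centre was inside in 35.5% of pairs with members and in 54.4% of pairs with stable regions with 5fC.

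The same difference stood out when p300 was followed by distance from the centre. At the centre of the members 1.3% had fl/fl p300, against 3.13% at 1 kb and 2.87% at 4 to 5 kb on both sides. Stable regions with 5fC showed the opposite shape, with 5.42% at the centre and 3.40% at 4 to 5 kb. In Tdg -/- cells the values were 2.22% at the centre and 3.96% at 4 to 5 kb for members, and 8.21% and 4.54% for regions with 5fC. The rule removes 5fC from the middle of a member and not from its flanks, where Tdg -/- 5fC covered 10.9% at 4 to 5 kb. A further profile, chosen after the first was seen, followed only p300 regions that meet no 5fC. There the centre was closer to 4 to 5 kb, at 1.20% against 1.53% in fl/fl and 2.01% against 2.02% in Tdg -/- cells. It remained below the values at 1 kb, 2.01% and 2.74%. Members hold no 5fC, so this filter takes p300 mainly from the flanks. In fl/fl cells 4 to 5 kb went from 2.87% to 1.53% and the centre from 1.3% to 1.20%. A shallower dip is thus favoured by the filter, and the size of that effect was not tested. In the 5hmC regions without 5fC that EB lack, the centre stood at 0.752% against 1.6% at 4 to 5 kb in fl/fl and at 1.55% against 2.09% in Tdg -/- cells with the same p300 regions. The part of the missing 5fC in the dip was not tested.

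**Figure D5:**
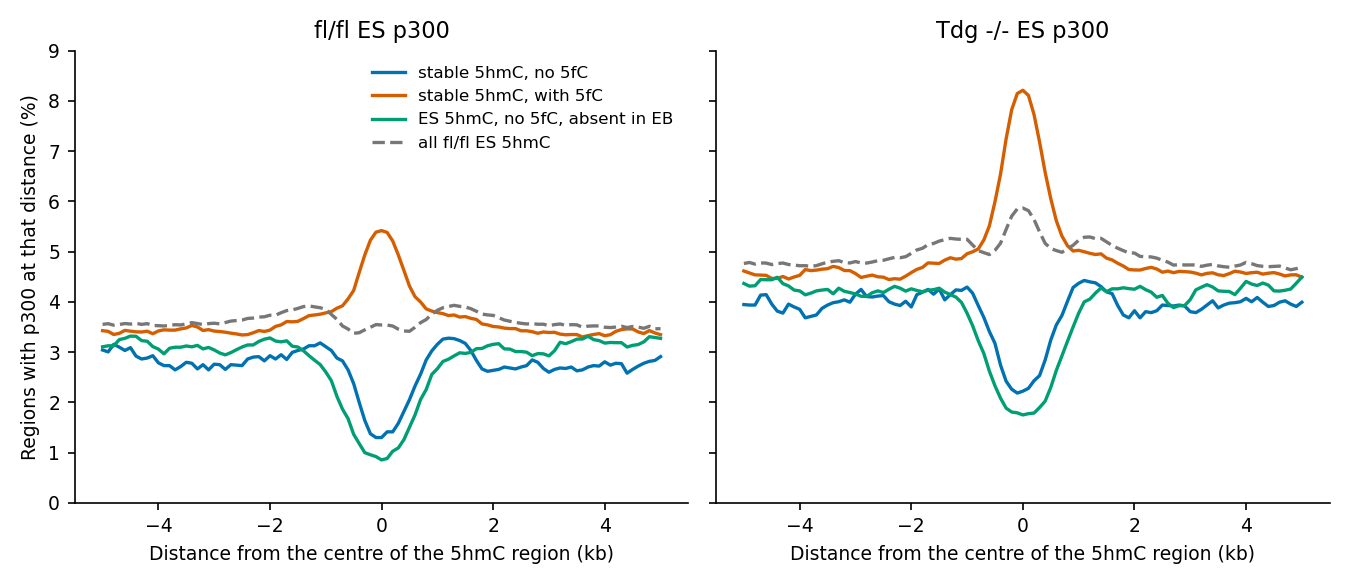
Percentage of 5hmC regions that have a p300 region at each distance from their centre (steps of 100 bp, up to 5 kb on both sides), for fl/fl (left) and Tdg -/- (right) p300. Stable regions with 5fC have a peak at the centre (5.42% and 8.21%), and both classes without 5fC a dip (1.3% and 2.22% for the stable ones); the dashed line is all fl/fl ES 5hmC regions.

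A closer comparison is with the 24340 fl/fl ES 5hmC regions that were also in the Tdg -/- list and in no 5fC list but were absent from EB. These lack 5fC by the same rule, and their median width (864 bp) and median score (80.1 against 84.3) were close to those of the members. fl/fl p300 lay at 2.91% (2.71 to 3.13) of them and at 4.18% of the members, a difference of 1.27 points (0.844 to 1.72), with the members higher on 18 of 20 chromosomes. Tdg -/- p300 lay at 4.86% and 6.10% and differed by 1.24 points (0.720 to 1.78), with the members higher on 15. At equal width and score the differences were 1.29 and 1.18 points. With p300 regions that meet no 5fC alone, chosen after seeing the data, they were 1.13 (0.747 to 1.54) and 1.02 points (0.545 to 1.52). Farther out the order was the other way: the nearest fl/fl p300 region was a median of 14369 bp from the regions that EB lack and 16219 bp from the members, and 40.9% and 38.3% had one within 10 kb. Among regions without 5fC, those that EB also carried thus overlapped ES p300 slightly more often in these pooled lists, but did not lie closer to it in general. How EB p300 compares is not analysed here.

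Strong p300 could lie on members with fl/fl 5hmC scores around the members' median of 84.3, below the median of 109 for the whole list. Among those with p300 in both genotypes, the highest fl/fl p300 score, 2771.19, lay at 97053221 to 97054096 on chromosome 6, where the 5hmC scores were 86.42 (fl/fl), 189.12 (Tdg -/-) and 208.69 (EB) and the p300 score in Tdg -/- cells was 2944.2. The next stood at 25040750 to 25041758 on chromosome 16 (p300 scores 1909.21 and 1559.44), 120157621 to 120158720 on chromosome 5 (1384.43 and 1593.7) and 68255567 to 68256947 on chromosome 18 (1368.68 and 1990.59). Their fl/fl 5hmC scores were 93.49, 78.27 and 59.58. At the first of the 4 the Tdg -/- p300 region covered the whole 875 bp of the member and the fl/fl one 480 bp of it. The others, 1008, 1099 and 1380 bp wide, shared 851, 276 and 292 bp with fl/fl p300. With Tdg -/- p300 they shared 26, 736 and 266 bp.

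Of the members with p300 in 1 genotype alone, the 3 with the highest p300 score in each genotype are described. For Tdg -/- cells the highest p300 scores, 1931.76, 1803.21 and 1582.93, lay at 106265157 to 106266114 on chromosome 14, 92413996 to 92415280 on chromosome 1 and 14483808 to 14484741 on chromosome 9. The shared stretches were 118, 328 and 96 bp, and the nearest fl/fl p300 region began or ended 3, 122 and 14 bp from the member. For fl/fl cells alone the highest were 503.59, 263.17 and 240.55, at 66556293 to 66558367 on chromosome 10, 36185450 to 36186318 on chromosome 8 and 35755353 to 35755841 on chromosome 1, with shared stretches of 9, 306 and 20 bp and Tdg -/- p300 at 122, 1340 and 72 bp. All of these 6 but the one on chromosome 8 had p300 of the other genotype within 122 bp, so a member counted with 1 genotype alone can still lie beside p300 of both.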

How the data were processed

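Per the labels, region lists were deposited by the authors for 5hmC, 5fC and p300, 1 for each group over all its libraries, and FPKM tables for each ES genotype. Per the file headers, scores are 10 times the negative log10 of a p-value; headerless lists were taken to use that scale. Region positions are in mm9 and printed as deposited, where the first base may count as 0 or 1. The submitters' processing notes name Bowtie, MACS 1.4, TopHat 1.4.1 and Cufflinks 1.3.0; no source used here gives call thresholds. The files give no read numbers, so depth is unknown. Of 30 libraries, 18 stand behind the 8 lists, 4 are RNA and 8 (input DNA, control enrichments, H3K4me1 chromatin) are not analysed here. Regions were not placed on genes and no sequences were read, since no mm9 genome or annotation was used here.

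Overlap meant at least 1 bp, on chromosomes 1 to 19 and X. Overlap and distance code (Python 3.11.15, pandas 2.3.3, scipy 1.17.1) was tested on simulated lists and against bedtools 2.31.1. Regions were matched to the counterpart sharing most bp. Rows of the FPKM tables with 1 symbol were summed, and genes with at least 1 FPKM in either genotype were measured. Named regions are the 4 members with the highest and the lowest 5hmC score, the 4 widest, the 2 narrowest, and those under the highest-scoring p300 (4 in both genotypes, 3 in each alone). Members, lists and comparisons were chosen with earlier results of these data known. Regions prone to false signal were not removed.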

Additional observations from a re-analysis of the deposited data

How the results depend on the processing

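No paired analysis was possible because each group has 1 pooled list, and for the same reason no library could be left out. Gene expression at the regions was planned and not run, for want of an mm9 annotation here. The fl/fl p300 difference between stable 5hmC without and with 5fC was negative under all 14 other settings tried. It was -4.21 points when marks were counted at region centres, -2.30 with the higher-scoring 50% of each list, -4.99 with a score of at least 60.92 everywhere, -5.56 under 2000 bp of width and -6.99 with EB 5hmC not required. In alternatives added after seeing the data it was -4.58 at equal width, -5.71 at equal width and score and -3.85 against regions with 5fC in the Tdg -/- list alone. The 1009 stable regions with 5fC in the fl/fl ES list alone were not among these settings. Their share on fl/fl p300, 3.57% (2.59 to 4.90), was below the members' 4.18%, so the sign was the other way against that class. Its interval includes 4.18%, so this reversal is within counting error. On Tdg -/- p300 that class stood at 7.33% (5.88 to 9.11), above the members' 6.10% (5.66 to 6.58), and these intervals overlapped. The number of members was 4189 with the higher-scoring lists and 34956 without the EB condition, and stayed within 1.5 times of 10616 otherwise. Their share of fl/fl ES 5hmC was 8.96% by centres, 7.09% where the other 5hmC covers at least 50% of the region, 5.94% with the higher-scoring lists, 6.90% with 1 score minimum, 5.31% with no 5fC within 1 kb, 7.18% after merging of regions closer than 1 kb, 24.8% without the EB condition and 7.68% without chromosome 11. Median widths were 919 bp by centres, 1059 bp with the higher-scoring lists, 907 bp with 1 score minimum, 854 bp with no 5fC within 1 kb and 876 bp after merging. Shares on fl/fl and Tdg -/- p300 were 1.48% and 2.42% by centres, 2.27% and 3.32% with the higher-scoring lists, 3.58% and 5.24% with no 5fC within 1 kb, 3.30% and 5.24% without the EB condition, and 10.2% and 14.0% with p300 within 1 kb. Fewer regions pass with higher scores and more with looser conditions by construction; other causes were not tested. The unknown depth limits every statement that 5fC was absent.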

Other observations

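The rule can also be started from the other 5hmC lists. Of the Tdg -/- 5hmC regions, 61260 under 4000 bp were stable and 10283 of these (16.8%) met no 5fC. From EB the numbers were 61131 and 10118 (16.6%). Median widths were 950 and 954 bp without 5fC and 1287 and 1258 bp with it. Regions without 5fC lay on fl/fl p300 at 4.41% (4.03 to 4.82) when taken from the Tdg -/- list and 4.67% (4.28 to 5.10) when taken from the EB list, and those with 5fC at 11.1% and 11.3%. The same 6 lists enter each time, so these values repeat the pattern and do not test it.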
